A study of Mus musculus with 6 samples.

Results

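The AP-1 and immediate early genes comprised 10 genes of the expression table, namely the Fos family members Fos, Fosb, Fosl1 and Fosl2, the Jun family members Jun, Junb and Jund, and Egr1, Atf3 and Ier2. They were chosen by gene symbol, and all 10 had a row among the 18943 genes of the table and passed the filter on low values. The libraries were made from FACS-purified muscle stem cells (MuSCs) of wild-type (WT) C57BL/6 mice, 8 weeks old, which were kept in culture for 5 days. The cells received DMSO, the solvent control, endothelin-3 (ET-3) or neurotensin (NT), the ligands at 100 nM according to the labels, and the study's methods state higher doses. ET-3 and NT are peptides that act on G protein-coupled receptors. Each group held 2 libraries, and whether animals were pooled is not given in the sources used here.

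AP-1 is a dimer of basic leucine zipper proteins. Fos proteins cannot pair with themselves and bind DNA with a Jun partner, whereas Jun proteins also pair with each other and with factors of the ATF family. Fos and Fosb carry strong transactivation domains and Fosl1 and Fosl2 do not. Immediate early genes are transcribed from preformed factors within minutes of a stimulus, and in MuSCs Fos, Jun, Egr1 and Atf3 are known as early genes of activation that are also induced when muscle is dissociated. The cells examined here had been in culture for 5 days. The first response to isolation or to the ligands was not sampled, and how far the values hold an acute response was not tested.

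Library sums lay between 4214458 and 4600575, and the values were read counts that had been multiplied by 1 factor per library, between 0.781 and 1.19, and rounded. Divided by these factors they corresponded to between 3629296 and 5396581 reads on genes. Of 8 markers of MuSCs and myoblasts, 8 were listed, and all but Calcr were read in each library. Calcr had values of 1 and 0 in DMSO, 1 and 0 in ET-3 and 3 and 3 in NT libraries. By the test given below, 2 of 7 tested markers were higher and 3 lower under ET-3, and 2 and 5 under NT. The labels call the cells muscle stem cells in each group, but the DMSO cultures also held transcripts of differentiating muscle. The summed value of 8 differentiation markers, Myog and Ckm among them, was 12912 to 14326 in DMSO, 400 to 439 in ET-3 and 303 to 403 in NT libraries, and that of 7 markers of dividing cells was 5540 to 5882, 8492 to 8514 and 7737 to 8153. Whether the members moved with this change in the makeup of the cultures was not tested, and in bulk RNA fewer cells of a type and less RNA per cell cannot be told apart. The libraries of the ET-3 pair and of the NT pair differed by no more than repeated sampling of reads gives, as their chi-square averaged 0.895 and 0.961 over genes, where sampling alone gives 1, against 1.45 for the DMSO pair. The series is described as sequenced in triplicate and the study speaks of biological samples, whereas the labels give 2 libraries per group and do not say that they came from separate cultures, so the p-values measure the spread between these libraries, which may be technical.

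Under ET-3, 2 of the 10 members rose and 6 fell, and under NT 2 rose and 7 fell. Fosb and Fosl1 were the members that rose under both ligands, and Fos, Fosl2, Jun, Jund, Egr1 and Atf3 fell under both. Atf3 changed most, to a level more than 11-fold below DMSO, and Fos fell and Fosb rose by more than 4-fold. The test was limma's trend method on log2(value + 1), and a member passed it where the p adjusted by Benjamini-Hochberg over 13921 genes did not exceed 0.05. At this rule 30.6% of the tested genes were higher and 33.2% lower under ET-3, and 29.7% and 32.5% under NT. Most of the tested genes thus passed this test, and a call alone does not set a member apart from other genes. Both ET-3 libraries lay above both DMSO libraries for 38.9% of the tested genes and below both for 40.7%. For NT these shares were 38.9% and 41.7%. A lack of overlap with DMSO, given below for single members, was thus also common to most genes. With a change of at least 2-fold asked in addition, 2 members were higher and 2 lower under ET-3, beside 6.62% and 14.9% of all genes, and 1 was higher and 2 lower under NT, beside 7.3% and 13.2%. Over the members the median log2 fold change was -0.35 (ET-3) and -0.41 (NT), and over all tested genes it was -0.01 in both cases. The members spread widely around their median, from -3.53 to 2.10 under ET-3. Both comparisons use the same DMSO libraries, so they are not independent of each other.

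**Figure D1:**
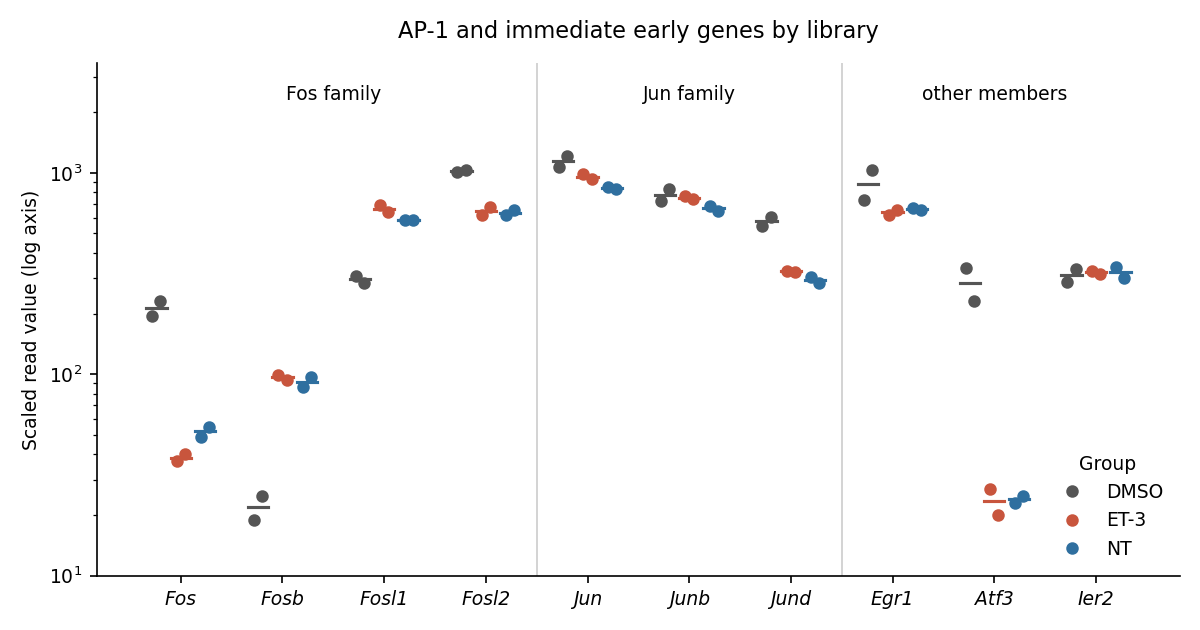
Deposited value, a scaled read count, of each of the 10 members in each library, on a log axis, with 1 point per library and a line at the mean of the 2 libraries of a group. Fosb and Fosl1 lie higher in all 4 treated libraries than in both DMSO libraries. Fos, Fosl2, Jun, Jund, Egr1 and Atf3 lie lower in all 4, and Ier2 overlaps between the groups.

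The promoters of 4 members are shown because these genes changed in opposite directions or to very different extents, and because Fos, Jun and Atf3 are textbook targets of AP-1, ATF and CREB factors. The sequences are the 250 bases before the RefSeq start of the gene on GRCm38.p6, written along the coding strand, with matches to the searched motifs in capitals.
Fos, chr12:85473640-85473889, plus strand: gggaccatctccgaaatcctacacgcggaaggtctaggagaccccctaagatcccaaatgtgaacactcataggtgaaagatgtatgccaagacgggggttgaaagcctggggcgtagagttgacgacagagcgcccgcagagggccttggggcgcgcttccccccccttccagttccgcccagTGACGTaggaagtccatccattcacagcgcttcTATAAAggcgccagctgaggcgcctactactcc
Fosb, chr7:19310046-19310295, minus strand: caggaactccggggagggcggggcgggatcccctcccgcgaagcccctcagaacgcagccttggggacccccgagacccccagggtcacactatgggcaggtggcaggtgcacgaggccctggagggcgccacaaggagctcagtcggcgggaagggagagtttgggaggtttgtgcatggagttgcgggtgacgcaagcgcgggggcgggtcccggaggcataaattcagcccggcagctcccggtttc
Jun, chr4:95052223-95052472, minus strand: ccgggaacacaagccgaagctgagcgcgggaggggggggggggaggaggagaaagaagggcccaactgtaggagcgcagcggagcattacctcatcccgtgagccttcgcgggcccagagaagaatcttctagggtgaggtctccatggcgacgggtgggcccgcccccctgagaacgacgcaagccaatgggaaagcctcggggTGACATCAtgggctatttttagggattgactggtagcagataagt
Atf3, chr1:191183334-191183583, minus strand: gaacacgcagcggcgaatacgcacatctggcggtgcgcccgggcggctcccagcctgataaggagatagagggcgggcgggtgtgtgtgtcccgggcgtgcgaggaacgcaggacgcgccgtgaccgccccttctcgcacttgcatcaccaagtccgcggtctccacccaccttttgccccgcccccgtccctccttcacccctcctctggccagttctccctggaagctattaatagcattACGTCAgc
The motifs searched were TGACTCA, the TPA response element that AP-1 binds, TGACGTCA, the cAMP response element, its core TGACGT, the variant TGACATCA and the CArG box of serum response factor, all on both strands, and TATAAA on the coding strand. This core also lies inside each cAMP response element. In the window of Fos, TGACGT lay at -66 to -61 from the start and TATAAA at -33 to -28. Jun held TGACATCA at -45 to -38, and Atf3 held ACGTCA, the same core on the other strand, at -8 to -3. The window of Fosb held none of these letter strings, nor did those of Fosl2, Junb and Jund, which says only that the letters are not in these bases. The windows of Atf3 and Fosl2 lie inside the spans of these genes in the GENCODE annotation, and that of Jund lies upstream of the start given there. The serum response element of Fos is known to lie upstream of the window shown. Among 32851 promoters of the same length, 4.46% held TGACTCA, 1.55% TGACGTCA, 2.93% TGACATCA, 6.47% TGACGT, 1.47% a CArG box and 7.59% TATAAA. Of the 10 members 7 had a window among these promoters. Fosl1, Egr1 and Ier2 had none, and Egr1 lies on the chromosome left out.

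Fos (ENSMUSG00000021250, chr12:85473890-85477273 on GRCm38, plus strand) encodes the founding member of the family, a strong activator whose mRNA decays quickly. Its values were 195 and 231 in DMSO, 37 and 40 in ET-3 and 49 and 55 in NT libraries. All treated libraries lay below both DMSO libraries. Its log2 fold changes were -2.43 (ET-3) and -2.01 (NT) (SE 0.15 for both, adjusted p = 4.83e-07 and 1.94e-06 in limma with Benjamini-Hochberg adjustment), or 5.4-fold and 4.03-fold lower. Ranked from the most negative change, Fos stood at 843 under ET-3 and at 939 under NT among the 13921 tested genes. The treated values rest on 31 to 70 reads per library.

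Fosb (ENSMUSG00000003545, chr7:19302696-19310051, minus strand) encodes the closest relative of Fos, which also exists in a shortened form that lacks the transactivation domain. The values per gene do not separate these forms. Fosb had values of 19 and 25 in DMSO, 99 and 94 in ET-3 and 86 and 97 in NT libraries, and thus moved opposite to Fos. It rose under both ligands, with log2 fold changes of 2.10 (ET-3) and 2.02 (NT) (SE 0.18, adjusted p = 4.98e-06 and 7.02e-06 in limma with Benjamini-Hochberg adjustment), or 4.27-fold and 4.05-fold. The DMSO values rest on 19 and 22 reads, with relative counting errors of 22.9% and 21.3%. In spite of the rise Fosb remained low, and per kilobase of exon it was the lowest member with DMSO, at 3.52 ± 0.68 (SD, n = 2).

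Fosl1 (ENSMUSG00000024912, chr19:5447547-5455946, plus strand) encodes FRA1, which lacks a strong transactivation domain and is induced after Fos in the textbook order of growth factor responses. Its values were 308 and 284 in DMSO, 689 and 639 in ET-3 and 582 and 584 in NT libraries. All treated libraries lay above both DMSO libraries. Its log2 fold changes were 1.16 (ET-3) and 0.98 (NT) (SE 0.06, adjusted p = 1.24e-07 and 4.52e-07 in limma with Benjamini-Hochberg adjustment), so that 2.24-fold under ET-3 passed the 2-fold threshold and 1.97-fold under NT did not. Of the exonic bases of Fosl1, 57.2% (1163 bases) also lie in exons of Ccdc85b on the opposite strand, whose values were 125 and 150, 186 and 167, and 182 and 184. The library kit named in the labels does not mark the strand and the one in the study's methods does, and the strand setting of the counting is not stated. Without strand, reads of such overlapping genes cannot be told apart, and reads that overlapped both genes were left out by the authors.

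Fosl2 (ENSMUSG00000029135, chr5:32135801-32157842, plus strand), which encodes FRA2, had the highest mean value of the family over the 6 libraries. Its values were 1013 and 1032 in DMSO, 615 and 680 in ET-3 and 616 and 651 in NT libraries, without overlap between treated and DMSO libraries. Fosl2 fell, with log2 fold changes of -0.66 (ET-3) and -0.69 (NT) (SE 0.06, adjusted p = 4.52e-06 and 3.54e-06 in limma with Benjamini-Hochberg adjustment). The change was below 2-fold and larger than the spread within each pair. Among genes whose mean value reached 50, those whose values over the 6 libraries were most like those of Fosl2 were Fam219a, Ttc9 and Mvp, with a root mean square difference of 0.02, 0.03 and 0.03 on the log2 scale after each gene was centred on its own mean.

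The family therefore changed in composition rather than in one direction. Dividing each value by the exonic length in kilobases allows levels to be compared between genes. On this scale Fosl1 made up 42.2% ± 2.98 of the Fos family in DMSO, 76.8% ± 1.87 in ET-3 and 73.7% ± 1.02 in NT libraries (SD, n = 2). The share of Fos was 26.2% ± 2.79, 3.85% ± 0.324 and 5.68% ± 0.372, and that of Fosl2 30.6%, 15.8% and 16.8%. Fosb went from 1.02% to 3.63% and 3.77%. The summed level of the family per kilobase was 342.1 and 348.5 in DMSO, 434.0 and 416.6 in ET-3 and 384.5 and 393.4 in NT libraries, whereas the plain sum of the 4 values was 1535 and 1572, 1440 and 1453, and 1333 and 1387. The direction of the family sum thus depended on the division by length. The shares also depended on the length used. Without the bases that lie in exons of other genes the share of Fosl1 was 63.0%, 88.5% and 86.8%, and with no division by length it was 19.1%, 45.9% and 42.9%, in which case Fosl2 led with DMSO at 65.8%. Under each of these lengths the share of Fosl1 was higher and those of Fos and Fosl2 were lower with both ligands than with DMSO.

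**Figure D2:**
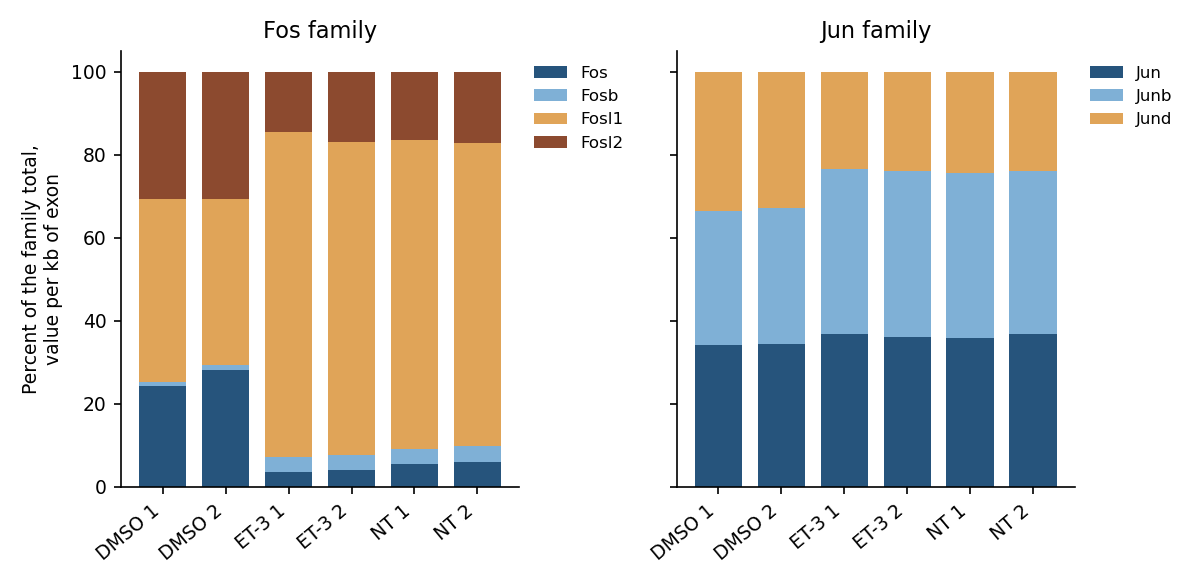
Share of each member in the summed level of its family, in percent of values per kilobase of exon, for each of the 6 libraries, with the Fos family and the Jun family in separate panels. Fosl1 takes 76.8% of the Fos family with ET-3 and 73.7% with NT against 42.2% with DMSO, and Jund takes less of the Jun family in the treated libraries.

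In the Jun family 2 of 3 members fell under ET-3, all 3 fell under NT, and none rose. Jund (ENSMUSG00000071076, chr8:70698949-70700616, plus strand) encodes the Jun protein that is expressed most evenly over tissues and restrains growth in many cells. Its values were 546 and 604 in DMSO, 326 and 323 in ET-3 and 305 and 285 in NT libraries, with no overlap. Its log2 fold changes were -0.82 (ET-3) and -0.96 (NT) (SE 0.07, adjusted p = 2.70e-06 and 9.69e-07 in limma with Benjamini-Hochberg adjustment). Exons of Gm11175 on the opposite strand cover 52.6% of the exonic bases of Jund (877 bases), and Gm11175 had values of 55 and 76, 19 and 27, and 15 and 21.

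Jun (ENSMUSG00000052684, chr4:95049034-95052222, minus strand) encodes c-Jun, the main partner of Fos and a target of the JNK kinases. It had values of 1068 and 1211 in DMSO, 983 and 927 in ET-3 and 853 and 836 in NT libraries. The groups did not overlap, but the DMSO libraries differed from each other by more than counting noise, with a chi-square of 8.43. Jun fell, with log2 fold changes of -0.25 (ET-3) and -0.43 (NT) (SE 0.06, adjusted p = 0.00470 and 0.000167 in limma with Benjamini-Hochberg adjustment). The ET-3 call was lost without the second DMSO library (-0.16, adjusted p = 0.0571 in limma with Benjamini-Hochberg adjustment) and without the second ET-3 library (-0.21, adjusted p = 0.0763), in a range of 1.70e-05 to 0.211 over 16 alternatives. The genes most like Jun in pattern were Suclg1, Cox7a2l and Plau, with root mean square differences of 0.02, 0.03 and 0.03 on the log2 scale. Plau encodes urokinase and is itself a textbook target of AP-1. It fell under both ligands, and whether Jun acts on it was not tested. Of 17 such targets tested, 10 rose and 2 fell under ET-3, and 9 rose and 5 fell under NT.

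Junb (ENSMUSG00000052837, chr8:84976910-84978718, minus strand), whose protein is a weaker activator than c-Jun, had values of 726 and 827 in DMSO, 766 and 740 in ET-3 and 687 and 647 in NT libraries. The ET-3 libraries lay between the DMSO libraries and the NT libraries below both. The log2 fold change under ET-3 was -0.04 with a 95% interval from -0.19 to 0.10 and did not pass the test (adjusted p = 0.599 in limma with Benjamini-Hochberg adjustment). Under NT Junb fell by 0.22 (SE 0.06, adjusted p = 0.0144 in limma with Benjamini-Hochberg adjustment), a call that was lost without the second DMSO library (-0.12, adjusted p = 0.132), without the second NT library (-0.17, adjusted p = 0.143) and with each library scaled to its total (-0.10, adjusted p = 0.157), in a range of 0.00331 to 0.268 over 16 alternatives. With library totals the ET-3 value was 0.05 and thus had the other sign. The NT call was also lost with the treated pairs averaged. Exons of the opposite-strand genes Junos and Prdx2 cover 7.28% of the exonic bases of Jun and 7.52% of those of Junb.

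Per kilobase, the Jun family members stood close together with DMSO, at 357, 345 and 338 for Jun, Jund and Junb, and their libraries overlapped. With ET-3 the order was Junb at 327, Jun at 300 and Jund at 195, and with NT Junb at 290, Jun at 265 and Jund at 177. The share of Jund in the family went from 33.2% with DMSO to 23.7% and 24.2%, that of Junb from 32.5% to 39.8% and 39.6%, and that of Jun from 34.4% to 36.5% and 36.2%. Without the bases shared with other genes Jund made up 49.2%, 37.8% and 38.4%, so the order of the family depended on the length used, whereas the lower share of Jund in treated libraries did not. The summed level per kilobase was 977.8 and 1101 in DMSO, 836.6 and 805.9 in ET-3 and 748.9 and 714.2 in NT libraries. The Jun family sum was thus lower in each treated library than in both DMSO libraries, and the plain sum of the 3 values showed the same order, with 2340 and 2642, 2075 and 1990, and 1845 and 1768.

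Atf3 (ENSMUSG00000026628, chr1:191170296-191218039, minus strand) encodes a stress-induced factor of the ATF family that represses as a homodimer and also pairs with Jun proteins. Its values were 338 and 230 in DMSO, 27 and 20 in ET-3 and 23 and 25 in NT libraries. Every treated library lay far below both DMSO libraries, and the treated values rest on 18 to 32 reads. Atf3 fell, with log2 fold changes of -3.53 (ET-3) and -3.49 (NT) (SE 0.23, adjusted p = 5.65e-07 and 6.61e-07 in limma with Benjamini-Hochberg adjustment), or 11.5-fold and 11.2-fold. Ranked from the most negative change of all tested genes, Atf3 stood at 510 under ET-3 and at 474 under NT. The DMSO libraries differed 1.47-fold from each other, with a chi-square of 19.3, which exceeds counting noise but is small beside the change.

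Egr1 (ENSMUSG00000038418, chromosome 18, plus strand) encodes a zinc finger factor and is, like Fos, a target of serum response factor. It had values of 736 and 1032 in DMSO, 617 and 655 in ET-3 and 671 and 655 in NT libraries. The treated libraries lay below both DMSO libraries, but the DMSO libraries differed 1.4-fold from each other, with a chi-square of 46.5, the largest of any member in any group. Egr1 fell, with log2 fold changes of -0.45 (ET-3) and -0.39 (NT) (SE 0.12, adjusted p = 0.00756 and 0.0161 in limma with Benjamini-Hochberg adjustment). Without the second DMSO library the values were -0.21 and -0.15, and the NT call was lost (adjusted p = 0.0774 in limma with Benjamini-Hochberg adjustment). The ET-3 call was lost without either ET-3 library (adjusted p = 0.116 without the first and 0.0680 without the second), and the NT call passed in 7 of 16 alternatives. The adjusted p ranged from 0.000467 to 0.323 for ET-3 and from 0.00102 to 0.375 for NT. The genes most like Egr1 in pattern, Zfp688, Nacc2 and Zfp27, had root mean square differences of 0.05, 0.06 and 0.06 on the log2 scale.

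Ier2 (ENSMUSG00000053560, chr8:84661331-84662854, minus strand), an immediate early gene that encodes a nuclear protein without a known DNA-binding domain, had values of 288 and 333 in DMSO, 325 and 316 in ET-3 and 342 and 301 in NT libraries. The groups overlapped. Its log2 fold change was 0.05 for either ligand, with 95% intervals from -0.14 to 0.24, and did not pass the test (adjusted p = 0.639 and 0.627 in limma with Benjamini-Hochberg adjustment). The intervals leave room for a small change in either direction.

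**Figure D3:**
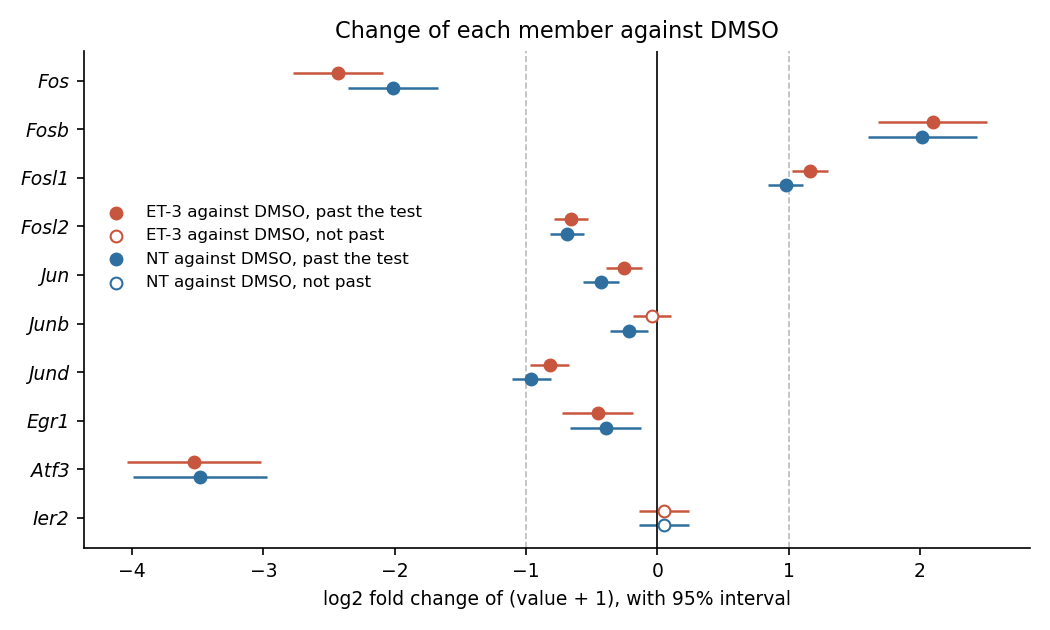
Log2 fold change of each member for each ligand against DMSO, as points with 95% intervals from limma's fit, and a vertical line at 0. Atf3 lies near -3.5 and Fosb near 2 under both ligands, and the points of Fos lie farther apart than those of any other member.

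Across all 10 members, the order of levels per kilobase changed between control and treated cultures. With DMSO the Jun family led, followed by Ier2 at 204 and Egr1 at 197, Fosl1 at 146 and Atf3 at 132, Fosl2 at 106, Fos at 90.6 and Fosb at 3.52. Ier2 and Egr1, and likewise Fosl1 and Atf3, were neighbours whose DMSO libraries overlapped. With ET-3 Junb and Fosl1 were both at 327, and Ier2 at 211 lay above Jund. Fos at 16.4 and Fosb at 15.5 overlapped, and Atf3 was lowest at 10.9. With NT Fosl1 at 287 overlapped Junb at 290, and Fos at 22.1, Fosb at 14.7 and Atf3 at 11.1 closed the order. This order rests on the full exonic length and turns where exons overlap other genes. Without the overlapped bases Fosl1 stood at 340 with DMSO, above Ier2 and Egr1, and at 763 with ET-3 and 670 with NT, far above Junb at 354 and 313. On the same length Jund stood at 727, 410 and 373 and thus above Ier2 in each group.

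The ligands were also compared with each other. At the adjusted p rule 0.647% of the tested genes were higher and 2.05% lower under NT than under ET-3, and with 2-fold in addition 0.0503% and 0.0287%. These calls were not stable, since 0 genes passed the adjusted p rule without any single library, with a replicate block, with the treated pairs averaged, with only the 2 groups in the fit or without the filter on low values. None of the 10 members passed in limma, with or without voom weights. At an unadjusted p under 0.05 in the same limma fit stood 4 members, beside 19.9% of all tested genes. The NT value of Fos lay 0.42 above its ET-3 value on the log2 scale (95% interval 0.08 to 0.77, adjusted p = 0.164 in limma with Benjamini-Hochberg adjustment). Fosl1 (-0.19), Jun (-0.18) and Junb (-0.18) had lower values under NT, with adjusted p = 0.127, 0.150 and 0.170 in limma with Benjamini-Hochberg adjustment. The NT libraries lay all above the ET-3 libraries for Fos and all below them for Fosl1, Jun, Junb and Jund (-0.14, adjusted p = 0.284), as they did for 27.7% and 21.9% of all tested genes, so 5 members of 10 is near the share of all genes. When a trend against reads per exonic base was removed, the values were -0.01 for Fosl1, 0.03 for Jun, 0.04 for Junb and 0.02 for Jund, and 0.35 for Fos. The intervals of Fosb (-0.49 to 0.33) and Atf3 (-0.47 to 0.55) are wide, so that a moderate difference between the ligands was not detectable for them at this depth.

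Other genes of the same pathway were described by lists written from general knowledge, by their counts alone, and a median within 0.10 of 0 has no fixed sign, since scaling to library totals turned it for 4 of the 6 lists under NT. Of all tested genes, 30.6% rose and 33.2% fell under ET-3, and 29.7% and 32.5% under NT. The counts of each list stand beside these shares. Among 12 tested ATF, CREB, BATF and C/EBP factors, which share partners with AP-1, 5 rose and 4 fell under ET-3. Under NT 3 rose and 5 fell, and the medians were 0.09 (ET-3) and -0.06 (NT). The 2 that fell at least 2-fold under both ligands were Ddit3, the stress factor CHOP, with values of 189 and 217, 43 and 40, and 38 and 44, and Cebpd, with 193 and 217, 68 and 57, and 50 and 47. Atf1 and Atf2, which encode activators that bind the cAMP response element, rose, with log2 fold changes of 0.48 and 0.26 for ET-3 and of 0.34 and 0.33 for NT. Of the 10 Maf and Nfe2l factors, 1 rose and 5 fell under ET-3, against 1 and 6 under NT, and the medians were -0.24 and -0.31. Mafa fell from 143 and 124 to 14 and 14 (ET-3) and 21 and 22 (NT). The factor that rose under both ligands was the small Maf gene Mafg, by 0.41 and 0.33 on the log2 scale.

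The other immediate early genes moved in both directions, as did the tested genes at large. Of 39 tested, 13 rose and 15 fell under ET-3, beside 30.6% and 33.2% of all tested genes. Under NT 10 rose and 15 fell, beside 29.7% and 32.5%. The medians were 0.02 (ET-3) and -0.06 (NT), beside -0.01 for all genes. With the treated pairs averaged, 5 rose and 12 fell with ET-3, against 4 and 12 with NT. With 2-fold in addition, 3 were higher and 11 lower under ET-3, beside 6.62% and 14.9% of all tested genes. Under NT these counts were 3 and 10, beside 7.3% and 13.2%. Nr4a2, an orphan nuclear receptor, had values of 66 and 38 in DMSO, 168 and 207 in ET-3 and 216 and 217 in NT libraries. Sgk1, a kinase induced by serum and glucocorticoids, rose from 176 and 181 to 552 and 530, and 510 and 509. Egr2, a relative of Egr1, fell from 60 and 74 to 14 and 9, and 21 and 11, and Btg2, an inhibitor of the cell cycle, from 288 and 305 to 80 and 78, and 75 and 81.

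Of 17 tested kinases and factors upstream of these genes, 6 rose and 5 fell under ET-3, against 5 and 4 under NT, and the medians were 0.02 and -0.03. The largest change was that of Elk3, an ETS factor that cooperates with serum response factor and can repress Fos, with 387 and 386 in DMSO, 779 and 769 in ET-3 and 776 and 779 in NT libraries, or a log2 fold change of 1.00 and 1.01. Mapk3, which encodes ERK1, rose by 0.58 and 0.46, whereas Map2k1, which encodes the kinase MEK1, fell by 0.41 and 0.45, and Rps6ka3 by 0.40 and 0.28 on the log2 scale.

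Of 17 tested genes that textbooks name as AP-1 targets, 10 rose and 2 fell under ET-3, and 9 rose and 5 fell under NT, with medians of 0.45 and 0.28. Areg, an EGF receptor ligand, had values of 32 and 32 in DMSO, 80 and 83 in ET-3 and 78 and 87 in NT libraries. Mmp10, a matrix metalloproteinase, had values of 2 and 0, 12 and 21, and 4 and 12, so its change rests on very few reads. Ccl2, a chemokine, fell from 62 and 32 to 10 and 9, and 8 and 4, and Plau fell by 0.28 and 0.43 on the log2 scale. With the treated pairs averaged, 5 rose and 0 fell with ET-3, against 4 and 0 with NT. In the direct comparison 8 of the 17 were lower under NT than under ET-3, beside 2.05% of all genes, but 0 were without any single library, DMSO libraries included, and 0 after removal of the coverage trend.

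Of 10 heat shock genes of the dissociation response, 8 rose and 1 fell under ET-3, with a median of 0.27, and 3 rose and 2 fell under NT, with a median of -0.01. Hspa1b, which encodes an inducible HSP70, rose by 0.78 and 0.58, and Hspb1, which encodes a small heat shock protein, fell by 0.42 and 0.74 on the log2 scale. Under ET-3 the number that rose was 5 without the first DMSO library, 3 without the first ET-3 library and 0 with the treated pairs averaged. Under NT it was 0 without the second DMSO library and 0 without the first NT library. In the direct comparison 3 of the 10 were lower under NT, but 0 were without any single library and 0 after removal of the coverage trend.

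**Figure D4:**
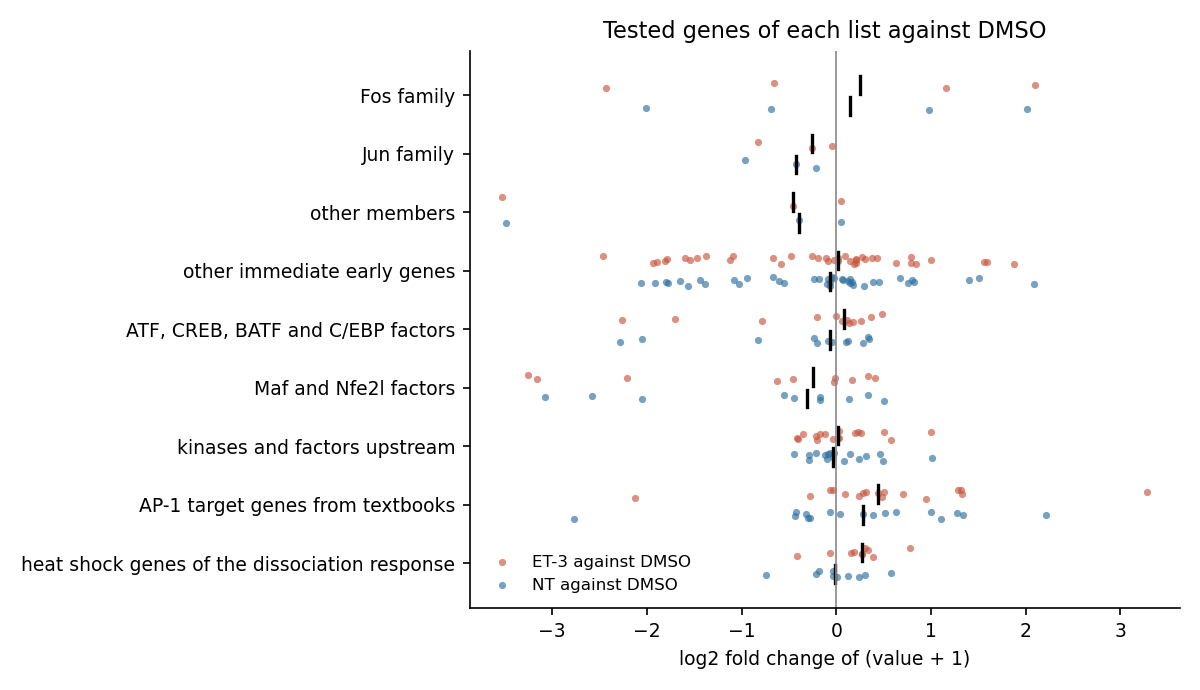
Log2 fold change under ET-3 and under NT of each tested gene in the lists described, with 1 point per gene, the median of each list as a bar and a line at 0. The medians of the lists lie between -0.45 and 0.45, and the AP-1 target genes have the highest, 0.45 under ET-3 and 0.28 under NT.

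Markers of other cell types were listed beside these values. Of 5 endothelial markers, 4 were listed and summed to 12 to 24 in DMSO, 96 to 104 in ET-3 and 85 to 107 in NT libraries, with Cdh5 at 10 or less. Of this sum Tek went from 2 and 1 in DMSO to 68 and 59 in ET-3 and to 42 and 70 in NT libraries, whereas Pecam1 had 6 and 3, 10 and 7, and 15 and 9 and did not pass the test under ET-3. The 5 smooth muscle and pericyte markers summed to 2355 to 2814, 746 to 798 and 878 to 924, with Myh11 at 10 or less. Of 5 fibroadipogenic markers, 3 were listed and summed to 56 to 65, 63 to 75 and 82 to 89, the 2 listed of 5 macrophage markers to 21 to 27, 21 to 45 and 27 to 28, and the 3 listed of 5 Schwann cell markers to 137 to 153, 617 to 627 and 619 to 682. No listed marker was at 0 in all libraries. The part of these cells in the members' values was not tested.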

How the data were processed

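The data comprised 6 RNA-seq libraries of cultured MuSCs. Groups were taken from the treatment named in the labels. According to the study's methods, the authors trimmed single-end reads, aligned them to mm10 (GRCm38) with STAR and assigned them to the exons of each gene with featureCounts, leaving out reads of several genes or regions. The submitters' processing notes list Trimmomatic 0.38, STAR 2.7.7a, featureCounts 1.6.5 and DESeq2 1.30.0, whereas the methods name another trimmer and other versions, so which were used is unsettled. The deposited values are whole numbers and were used as a read signal, because their spacing shows counts that the authors had multiplied by 1 factor per library and rounded. Count models planned as alternatives were therefore not used.

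Positions and exonic lengths were taken from the GENCODE mouse annotation of GRCm38 for 18920 genes. Values were analysed as log2(value + 1), which understates changes of low genes, for genes whose mean value reached 5. Differences were tested with limma 3.58.1 (trend) in R 4.3.3, all 6 libraries in 1 fit, with Benjamini-Hochberg adjustment over the 13921 genes tested, at an adjusted p of at most 0.05. The fit was tested on simulated data. Counting errors are those of Poisson counts at the recovered reads and cover counting error only. Members and lists were chosen with earlier results of these data known. The genes named from a list are those 2 per direction that changed most among genes past the test under both ligands, some of which are not reported here, and likeness was examined for the member with the highest mean in each group. The deviations of same-numbered libraries had correlations of -0.01, -0.07 and -0.02. The ET-3 and NT pairs differed by no more than read sampling gives, so these correlations cannot show whether the libraries were paired. Python 3.11.15 with numpy 2.4.6 and pandas 2.3.3 prepared the tables.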

Additional observations from a re-analysis of the deposited data

How the results depend on the processing

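Each comparison was repeated under 16 alternatives for each member, covering scaling, pseudocount, filter, libraries left out in turn, treated pairs averaged, a replicate block, voom weights, a 2-group fit and removal of a coverage trend. No member call changed direction. Fos, Fosb, Fosl1, Fosl2, Jund and Atf3 passed in all 16 under both ligands. With 2-fold asked in addition, 2 members were lower under ET-3 in place of 6, and 1 was higher and 2 were lower under NT in place of 2 and 7. With the treated pairs averaged, so that each gave 1 sample, Jun and Egr1 lost their calls under both ligands and Junb lost its call under NT. Leaving out 1 library at a time gave 4 to 6 lower members under ET-3, 5 to 7 under NT, and 2 higher under each. A replicate block left 2 higher and 6 lower under ET-3 and 2 and 7 under NT. It took the count of AP-1 target genes that were lower under NT than under ET-3 from 8 to 0. Of the counts of genes in the lists, which were added after seeing the data, 488 stayed within 1.5 times and 88 did not. Scaling to library totals moved the median of all genes from -0.01 to 0.08 under ET-3 and to 0.10 under NT, and the share of higher genes among all calls from 48.0% to 55.7% and from 47.7% to 58.4%. Junb passed under ET-3 after removal of the coverage trend (-0.17, adjusted p = 0.00898, limma with Benjamini-Hochberg adjustment). The cause was not tested. Planned edgeR and DESeq2 fits were not run, and voom was run on reads recovered by dividing the values by the fitted factors. Depth limits Fosb with DMSO and Atf3 with the ligands, at 18 to 32 reads per library.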
